A study of Mus musculus with 24 samples.

Results

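Interstitial mesenchymal progenitors of mouse tibialis anterior (TA) muscle were followed through 10 marker genes, taken from a list of names and matched to the deposited Ensembl identifiers by their GENCODE mouse symbols. The 10 members were 10 of the 55487 genes counted in each library, and each had 1 identifier. Pdgfra, Cd34, Ly6a, Dpp4 and Cd248 code for surface receptors and antigens, and Dcn, Lum, Mfap5, Pi16 and Gsn mostly for matrix and secreted proteins. The study sequenced poly(A) RNA from the left TA of 24 mice to ask how muscle transcription responds to photobiomodulation therapy (PBMT), an exposure of the shaved and anesthetized hind limbs to near infrared light of 830 nm. All mice were WT males of the inbred strain C57BL/6J, 5 to 7 weeks old, with 6 in each of 4 groups. Sedentary PBMT mice received the light and gave tissue 24 h later without running, and sedentary controls were shaved and anesthetized for as long without light. Fatigued PBMT mice were run to exhaustion on a treadmill 24 h after the light, with tissue taken straight after the run, and fatigued controls ran after anesthesia without light. No group received a sham light or heat alone, and sequencing of sedentary and of fatigued muscle ran as separate projects, so that exercise and sequencing project cannot be told apart.

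These progenitors sit in the space between muscle fibers, outside the basal lamina that covers the satellite cells, and carry the receptor for platelet-derived growth factor. They make much of the collagen, proteoglycan and elastic microfibril of the muscle interstitium, support satellite cells after injury, and can give rise to fibroblasts and adipocytes when repair fails. A subset marked by Dpp4 and Pi16 is known from the connective tissue around vessels and fascicles, and several of the markers are shared with other cells of muscle: Cd34 and Ly6a with endothelium, Cd248 with pericytes, Dcn and Lum with tendon fibroblasts, and Gsn with many cell types.

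Total counts per mouse were 43271093 to 46904076 in sedentary controls and 46327516 to 52775844 in sedentary PBMT mice, and these depths differed (exact permutation test, two-sided p = 0.00433). In fatigued muscle they were 56792327 to 68726155 in controls and 53122528 to 68566029 in PBMT mice (p = 0.357 in the same exact permutation test). Every member was detected in each of the 24 mice, from 22 counts of Dpp4 in a sedentary control to 71244 counts of Gsn in a fatigued PBMT mouse, and 10 of 10 passed the filter on low counts in every comparison. Levels are given in CPM, counts scaled to a common library total, after trimmed mean of M values (TMM) normalization over the 24 mice. In bulk tissue, fewer cells of a type and less RNA per cell cannot be told apart.

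Among the surface proteins, Pdgfra (ENSMUSG00000029231), the receptor that defines these progenitors, lies at chr5:75152292-75198215 on the plus strand of GRCm38. Cd34, a sialomucin of progenitors and endothelium, lies at chr1:194938819-194961279 on the plus strand, and Ly6a, the stem cell antigen Sca-1, at chr15:74994877-74998031 on the minus strand. Dpp4, a dipeptidyl peptidase, lies at chr2:62330073-62412231 on the minus strand, and Cd248, the lectin endosialin, at chr19:5068078-5070682 on the plus strand. Ly6a belongs to a family of close paralogs, and how the counting treated reads shared among them is not given in the sources used here. Among the matrix and secreted proteins, the proteoglycan genes Dcn (decorin, chr10:97479609-97518143) and Lum (lumican, chr10:97565128-97572703) are neighbors on the plus strand of chromosome 10. Mfap5, a microfibril glycoprotein that binds elastic fibers, lies at chr6:122505845-122529290 on the plus strand, Pi16, a peptidase inhibitor, at chr17:29317680-29330593 on the plus strand, and Gsn, the actin-severing protein gelsolin with a cytoplasmic and a plasma form, at chr2:35256380-35307892 on the plus strand. Genes of the opposite strand overlap exons of Pdgfra, Pi16, Dpp4 and Cd34, and the strand setting of the counting is not given in the sources used here. The most counts in any of these overlapping genes, summed over the 24 mice, were 155 for Gm16897 at Cd34, whose own counts were at least 1675 in each mouse.

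Per kilobase of exon, the members spanned a wide order of levels over the 24 mice. Gsn was the most abundant at 207 ± 63.1 CPM per kilobase (SD, n = 24), followed by Dcn at 50.1 ± 11.9, Ly6a at 33.8 ± 11.5, Lum at 11.9 ± 4.03 and Cd34 at 7.17 ± 1.57. Pi16 at 3.14 ± 2.49, Cd248 at 2.88 ± 1.61 and Mfap5 at 2.78 ± 1.09 formed a group whose neighbors did not differ beyond their spread: Pi16 lay above Cd248 in 11 of 24 mice, and Cd248 above Mfap5 in 13. By group means, Pi16 was below Cd248 in sedentary muscle (2.06 against 2.25 in controls, 1.465 against 2.17 with PBMT). In fatigued muscle it was above (4.05 against 3.38 in controls, 4.99 against 3.72 with PBMT). Pdgfra at 1.75 ± 0.631 and Dpp4 at 0.324 ± 0.165 CPM per kilobase came last, each below the gene before it in 24 of 24 mice. The other neighbors in the order kept their places in at least 22 of 24 mice. Within groups, Dpp4 and Pi16 varied most between mice, with a mean SD of 0.69 in log2 CPM for each, and Ly6a least with 0.24.

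**Figure D1:**
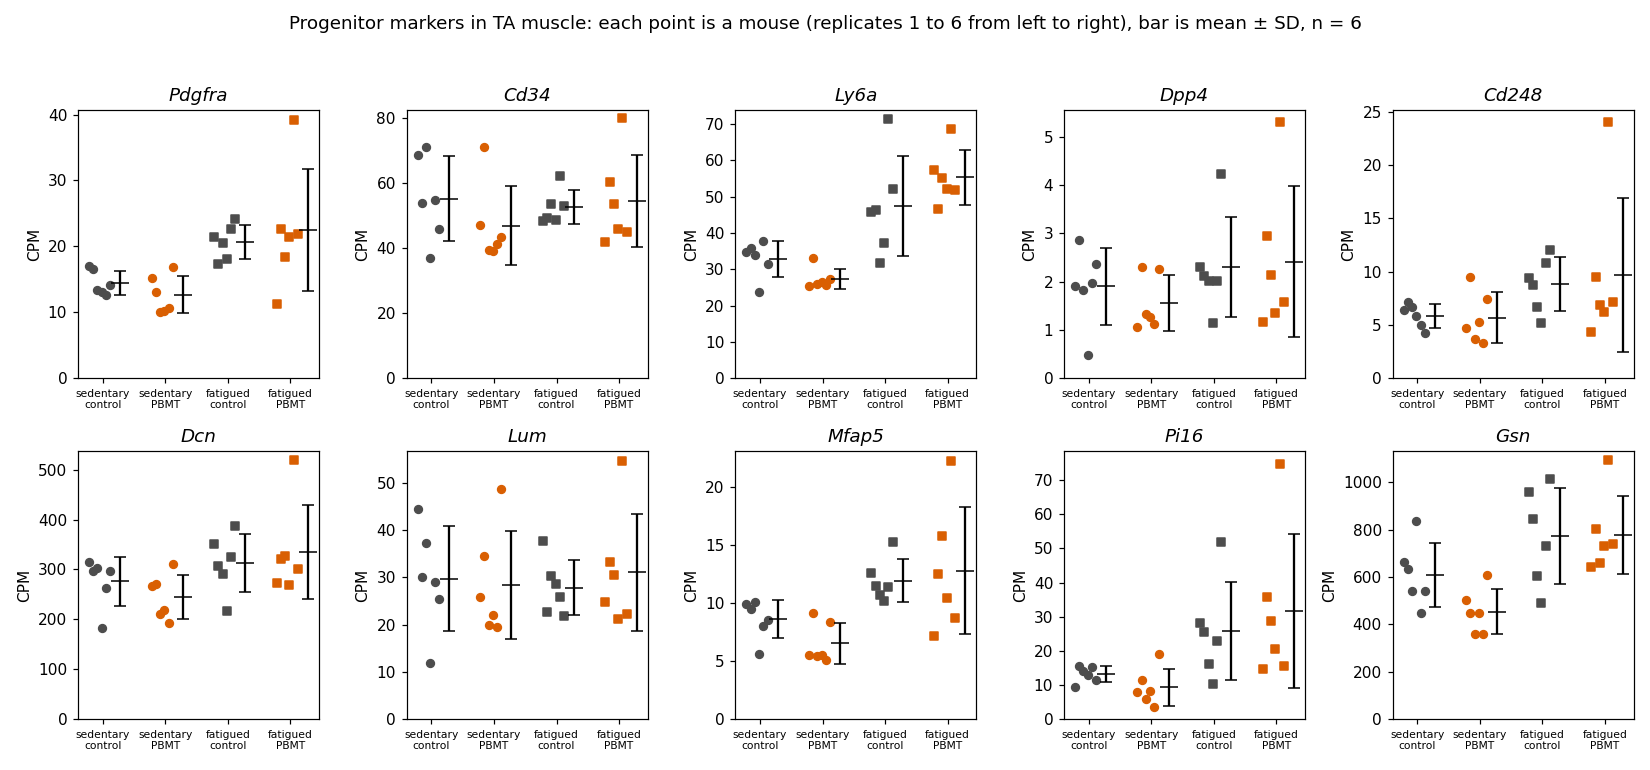
CPM of each member (vertical axis, from 0) in the 24 mice by group (horizontal axis); points are mice in order of replicate number and bars are the mean ± SD (n = 6). Fatigued PBMT replicate 5 is the highest of its group for all 10 members, for example 39.2 CPM of Pdgfra against 11.2 in the lowest mouse.

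With PBMT in sedentary muscle, the fitted level of 10 of 10 members was lower than in controls, and none of the differences passed the threshold. This comparison asks whether light alone alters transcription in resting muscle. The median log2 fold change of the members was -0.25, from -0.48 for Pi16 to -0.05 for Cd248, against a median of 0.00 over the 14177 genes tested, of which 50.4% were lower. At an adjusted p under 0.05 in edgeR, 0 of 10 members passed, beside 4 genes in all (0.0282% of those tested). An unadjusted p under 0.05 was reached by 3 members, Ly6a, Mfap5 and Gsn, beside 1082 genes (7.63%). DESeq2 also called 0 members, beside 60 genes in all (0.218%). With sample quality weights, limma voom called 2 members, beside 50 genes in all (0.353%). These were Ly6a (log2 fold change -0.40, adjusted p = 0.0173) and Mfap5 (-0.61, adjusted p = 0.0402). In limma voom the differences were larger for every member but Gsn (-0.38, against -0.42 in edgeR). Their median was -0.39, from -0.82 for Pi16 to -0.27 for Cd248. An unadjusted p under 0.05 in limma voom was reached by 8 of 10 members, beside 2057 of the 14177 genes. The groups overlapped in 10 of 10 members, whereas they did not overlap in 68 genes (0.48%). With 1 mouse left out the uniform direction was not always kept: Lum turned positive in 4 of 12 such fits and Cd248 in 4, and without PBMT replicate 3 or 5 both were higher.

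Of the surface proteins, Ly6a had 23.6 CPM in the lowest, 34.4 in the median and 37.8 in the highest sedentary control, and 25.5, 26.3 and 33.0 CPM in the PBMT mice. All PBMT mice but replicate 2 lay close together at 25.5 to 27.2 CPM, below every control except replicate 4, and 6 of 6 were under the control median. The log2 fold change of Ly6a was -0.26 ± 0.105 (SE; 95% interval -0.49 to -0.04), with an adjusted p of 0.607 in edgeR. Pdgfra ranged from 12.6 to 17.0 CPM in controls and from 10.1 to 16.9 CPM with PBMT, where 3 PBMT mice were below the lowest control and replicates 1 and 6 were in the upper part of the control range. Cd34 ranged from 36.8 to 71.1 CPM in controls and from 39.2 to 71.2 CPM with PBMT, and 5 of 6 PBMT mice were under the control median. Dpp4 and Cd248 overlapped widely: Cd248 had 2 PBMT mice below and 2 above all controls. The log2 fold changes of these 4 members were -0.18 for Pdgfra, -0.23 for Cd34, -0.29 for Dpp4 and -0.05 for Cd248, each with an adjusted p of at least 0.715 in edgeR.

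Of the matrix and secreted proteins, Gsn had 447 CPM in the lowest, 588 in the median and 837 in the highest control, and 358, 447 and 607 CPM in the PBMT mice. Its PBMT mice were lower as a group, 3 of them below every control and 5 of 6 under the control median, with replicate 6 alone above it. The log2 fold change of Gsn was -0.42 ± 0.146 (SE; 95% interval -0.73 to -0.11), a 0.747-fold level, with an adjusted p of 0.513 in edgeR. Mfap5 had 5.64 CPM in the lowest, 9.01 in the median and 10.1 in the highest control, and 5.11, 5.52 and 9.17 CPM in the PBMT mice. Here 4 PBMT mice were below every control, while replicates 2 and 6 were among the controls, so that the PBMT group itself split. The log2 fold change of Mfap5 was -0.39 ± 0.170 (SE), with an adjusted p of 0.638 in edgeR. Pi16 had 9.53 CPM in the lowest, 13.5 in the median and 15.6 in the highest control, and 3.67, 8.05 and 19.0 CPM in the PBMT mice. The PBMT mice lay on both sides of the controls, 4 below the lowest of them and replicate 6 above the highest, and the log2 fold change of -0.48 ± 0.299 (SE) had an adjusted p of 0.686 in edgeR. The small leucine-rich proteoglycans Dcn (-0.17) and Lum (-0.06) had adjusted p-values of 0.737 and 0.965, with PBMT levels of 192 to 310 CPM for Dcn inside the control range of 182 to 314 CPM.

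The sedentary PBMT mice did not stand alike. Replicates 2 and 6 were the highest of the group for 5 members each and for 25.71% and 19.99% of the genes in the 24-mouse fit, and replicate 5 was the lowest for 6 members and for 14.6% of the genes. Summed over the members, levels were 837 ± 162 CPM with PBMT (SD, n = 6; lowest 660, highest 1091) and 1048 ± 109 CPM in controls (SD, n = 6; lowest 874, highest 1170.0). Gsn made up 49.7% to 57.0% of this sum in the PBMT mice. Without Gsn and Dcn the sums were 138 ± 32.4 CPM with PBMT (SD, n = 6; lowest 110, highest 184). In controls they were 162 ± 30.9 CPM (SD, n = 6; lowest 110, highest 193). Among controls, replicate 4 was the lowest for 6 members, Dcn, Lum, Dpp4, Cd34, Ly6a and Mfap5, and the highest for Gsn, which made up 74.1% of its sum against 51.1% in the lowest control. Replicate 4 stood apart over the transcriptome as well, being the lowest of its group for 29.6% and the highest for 33.0% of the genes, the largest shares among the 24 mice. It also had the highest sum of the muscle fiber markers (145400 CPM against 101700 CPM in the lowest control), and the part of fiber content in its values was not tested.

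With PBMT in fatigued muscle, the fitted level of 10 of 10 members was higher than in controls, by small differences that did not pass the test and that, for 9 of the 10, turned negative when PBMT replicate 5 was left out. This comparison asks whether light given the day before alters the transcripts of muscle run to exhaustion. The median log2 fold change of the members was 0.11, from 0.01 for Gsn to 0.30 for Pi16, against 0.00 over the 14574 genes tested, of which 52.0% were higher. In edgeR 0 of 10 members passed an adjusted p under 0.05, beside 0 genes in all (0.0%), and 0 members reached an unadjusted p under 0.05, beside 230 genes (1.58%). DESeq2 also called 0 members, beside 2 of 27916 genes (0.00716%), and limma voom with quality weights 0 members, beside 0 of 14574 genes. The groups overlapped in 10 of 10 members and did not overlap in 4 genes (0.0274%). Without fatigued PBMT replicate 5, 1 of 10 members was higher and the median was -0.11, and with the quality weights of limma voom 2 of 10 were higher with a median of -0.05.

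Fatigued PBMT replicate 5 was the highest of its group for 10 of 10 members, whereas it was the highest for 26.1% of the genes in the 24-mouse fit. Averaged over the members it lay 0.91 log2 units above its group mean, and its summed level was 1983 CPM against 1077 to 1348 CPM in the other 5 mice. The members in which it stood out most were Pi16, at 74.9 CPM against a median of 24.8 and a lowest value of 14.7, and Cd248, at 24.1 CPM against 7.02 and 4.37. The same mouse had the highest summed level of the tenocyte markers (889 CPM against 188 to 414), of the leukocyte markers (126 CPM against 32.6 to 71.9) and of the fibrogenic genes (4490.0 CPM against 940.4 to 2264), and the lowest of the muscle fiber markers (135900 CPM). At the other end, replicate 1 was the lowest for 7 members. What set replicate 5 apart was not tested.

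Ly6a had 31.8 CPM in the lowest, 46.0 in the median and 71.4 in the highest fatigued control, and 46.7, 53.6 and 68.7 CPM in the fatigued PBMT mice. All 6 PBMT mice were above the control median, and 1 control, replicate 5, was above them all. The log2 fold change of Ly6a was 0.22 ± 0.164 (SE; 95% interval -0.13 to 0.58), with an adjusted p of 1.00 in edgeR, and it was 0.15 without PBMT replicate 5, the single member still higher. Pdgfra ranged from 17.4 to 24.1 CPM in controls and from 11.2 to 39.2 CPM with PBMT, so that the PBMT mice reached beyond the controls on both sides. Mfap5 did the same, with 10.2 to 15.3 CPM in controls and 7.18 to 22.2 CPM with PBMT, 2 PBMT mice below and 2 above all controls. Their log2 fold changes of 0.12 ± 0.223 for Pdgfra and 0.10 ± 0.233 for Mfap5 (SE) became -0.11 and -0.13 without replicate 5. Pi16, with 10.3 to 51.9 CPM in controls and 14.7 to 74.9 CPM with PBMT, had the widest 95% interval, from -0.72 to 1.32. The 10 members had an adjusted p of 1.00 each.

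**Figure D2:**
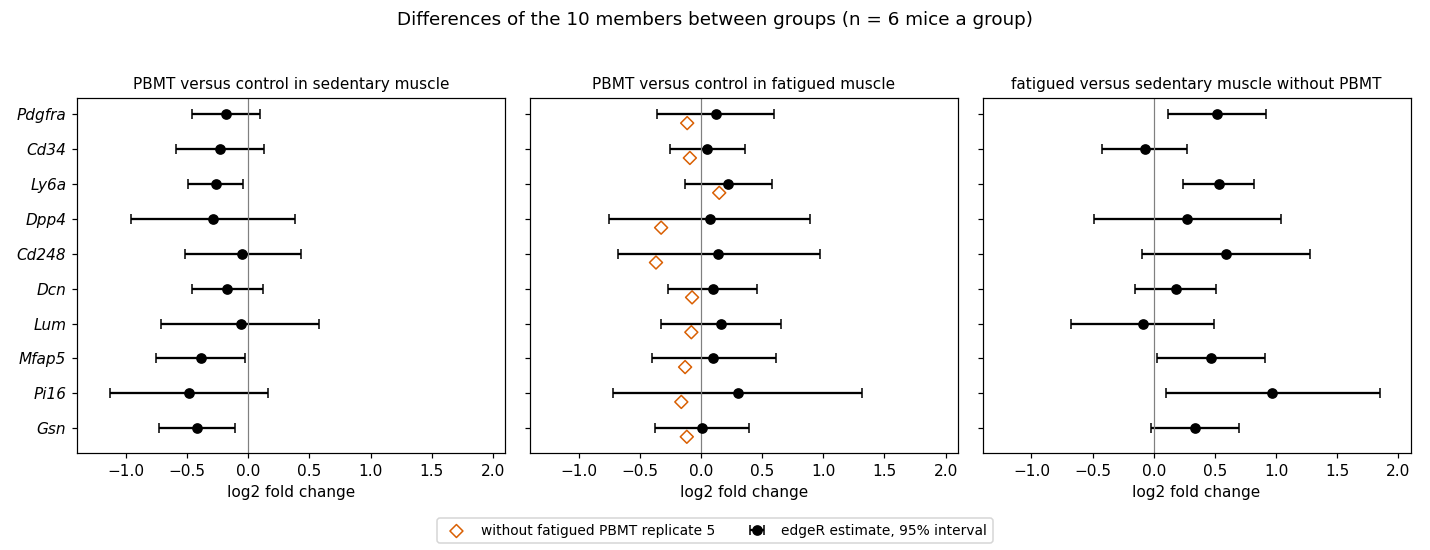
Log2 fold change of each member (horizontal axis) with its 95% interval from edgeR in both PBMT comparisons and between the control groups; n = 6 mice a group, and open diamonds show the fatigued comparison without PBMT replicate 5. With PBMT the intervals of Ly6a, Mfap5 and Gsn in sedentary muscle leave out 0, all 10 in fatigued muscle include it, and without replicate 5 only Ly6a is above 0 there.

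The difference between both PBMT effects, fatigued minus sedentary, was tested itself in a fit to all 24 mice. It was above 0 for 10 of 10 members, with a median of 0.33 log2 units and a range from 0.19 for Cd248 to 0.79 for Pi16, against 0.02 over the 15108 genes tested. No member passed (0 of 10 in edgeR, in DESeq2 and in limma voom), beside 1 gene in all (0.00662% in edgeR and limma voom, 0.00334% in DESeq2). Ly6a alone reached an unadjusted p under 0.05 in edgeR, beside 665 genes (4.4%). For Ly6a the difference was 0.49 ± 0.199 (SE; 95% interval 0.08 to 0.90), with an adjusted p of 0.946 in edgeR. Without fatigued PBMT replicate 5, 7 of 10 differences were above 0 and their median was 0.12, with Pi16 at 0.33, Pdgfra at 0.07 and Dcn at 0.10.

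Between the control groups, fatigued muscle had a higher fitted level of 8 of 10 members than sedentary muscle, and Ly6a rose past the threshold. Lum (-0.09) and Cd34 (-0.07) were the 2 with a lower level. The median log2 fold change of the members was 0.41, up to 0.97 for Pi16, against -0.01 over the 15108 genes tested, of which 48.4% were higher. In edgeR 1 of 10 members passed, beside 2809 genes (18.6%; 1375 higher and 1434 lower), and 4 members reached an unadjusted p under 0.05, beside 4861 genes (32.2%). The groups did not overlap in 2 members, Pdgfra and Mfap5, nor in 1164 genes (7.7%).

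Ly6a had a mean of 32.9 ± 5.01 CPM in sedentary and 47.4 ± 13.8 CPM in fatigued controls (SD, n = 6), and 4 fatigued controls were above every sedentary control. Its log2 fold change was 0.53 ± 0.141 (SE; 95% interval 0.24 to 0.82), with an adjusted p of 0.0108 in edgeR, and 5 of 6 fatigued controls were above the sedentary median. Pdgfra had 12.6 CPM in the lowest, 13.7 in the median and 17.0 in the highest sedentary control, and 17.4, 20.9 and 24.1 CPM in the fatigued controls. The groups were apart, by a narrow gap, in 6 of 6 mice, and the log2 fold change of 0.52 ± 0.192 (SE) had an adjusted p of 0.0601 in edgeR, which DESeq2 (0.0321) and limma voom (0.0143) took past the threshold. Mfap5 was likewise apart, at 5.64 to 10.1 CPM in sedentary and 10.2 to 15.3 CPM in fatigued controls, with a log2 fold change of 0.47 ± 0.214 (SE) and an adjusted p of 0.129 in edgeR. Pi16 had 9.53 to 15.6 CPM in sedentary and 10.3 to 51.9 CPM in fatigued controls, 5 of 6 fatigued mice above all sedentary ones, and a log2 fold change of 0.97 ± 0.421 (SE) with an adjusted p of 0.112. Gsn (0.34), Cd248 (0.59), Dpp4 (0.27) and Dcn (0.18) were higher with adjusted p-values of 0.178 to 0.651 in edgeR. Besides Ly6a and Pdgfra, limma voom also called Mfap5 (adjusted p = 0.0328), Pi16 (0.0300) and Gsn (0.0171), which DESeq2 did not. Of all genes, limma voom called 4945 of 15108 (32.7%) in this comparison and DESeq2 3202 of 29935 (10.7%). All 24 mice share 1 estimate of spread in this fit, and without fatigued PBMT replicate 1, fatigued PBMT replicate 5 or sedentary PBMT replicate 6 Pdgfra also passed, with adjusted p-values of 0.0178, 0.0149 and 0.0468.

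**Figure D3:**
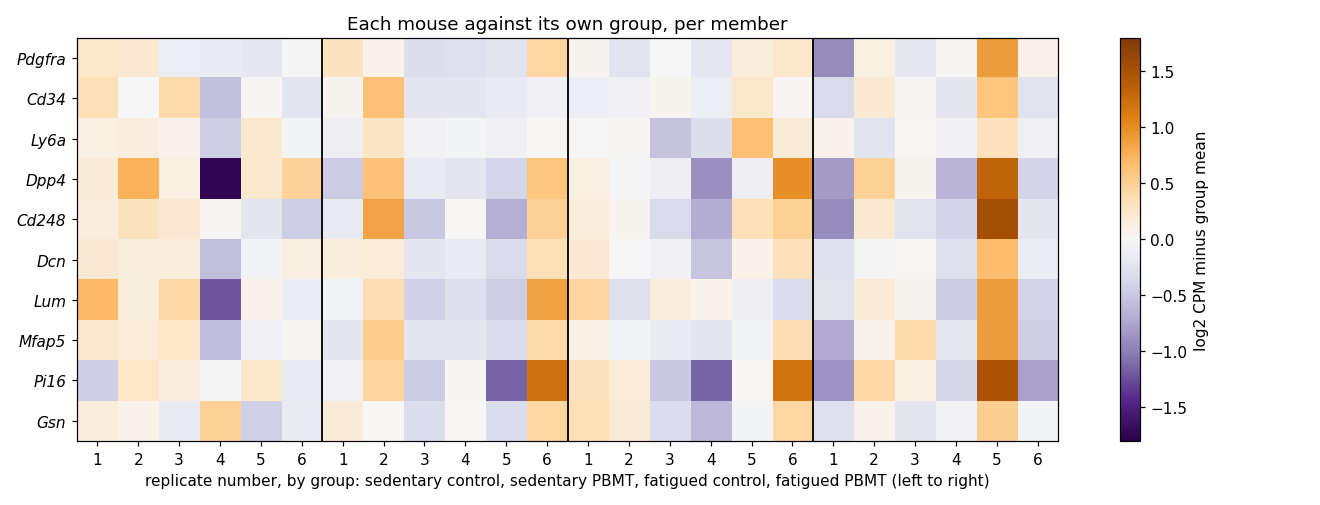
Log2 CPM of each member (rows) in each mouse minus the mean of its own group (color, in log2 units); columns are replicates 1 to 6 of the 4 groups, n = 6 each. Fatigued PBMT replicate 5 is high in every row, and sedentary control replicate 4 is low in most rows but high in Gsn.

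As a measure of distance between genes from mouse to mouse, the root mean square difference in group-centered log2 CPM over the 24 mice was taken between a gene and the mean profile of the members, whose own root mean square was 0.335, the distance of a gene that does not vary. Dcn (0.137) and Mfap5 (0.153) lay closest to the mean of the other 9 members, and Lum (0.346), Dpp4 (0.429) and Pi16 (0.449) farthest, beside a median of 0.402 over the 15108 genes. This distance grows with a gene's own spread, and Dpp4 and Pi16 also had the largest spread within groups, so that it does not tell a larger swing from a different pattern. Outside the list, the 5 genes with the smallest difference among 15098 were Serping1 (0.0851), an inhibitor of complement, Dpt (0.105), a dermatopontin of the matrix, Rnase4 (0.129), a secreted ribonuclease, C1ra (0.137), a complement protease, and Ddr2 (0.140), a collagen receptor. Centering takes out the differences between groups, and the mice that set this measure include fatigued PBMT replicate 5, without which it was not computed.

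Of 25 further genes of fibro-adipogenic progenitors, 7 were higher and 18 lower with PBMT in sedentary muscle, and their median was -0.18 log2 units. Those with the smallest unadjusted p were Apod (-0.27), an apolipoprotein, Clec3b (-0.45), the plasminogen-binding tetranectin, and Cxcl14 (-0.26), a chemokine. In fatigued muscle 18 were higher and 7 lower, with a median of 0.07, led by Tnfaip6 (0.74), a hyaluronan-binding protein, Hic1 (-0.20), a transcription factor of quiescent progenitors, and Bmp1 (0.20), a procollagen protease. No gene of the list passed in either comparison in edgeR, DESeq2 or limma voom, and 5 of 25 reached an unadjusted p under 0.05 in sedentary muscle, beside 7.63% of all genes, and 0 in fatigued muscle, beside 1.58%. Without fatigued PBMT replicate 5 the split in fatigued muscle became 7 higher and 18 lower. Between the controls, where 18.6% of all genes passed and 48.4% were higher, 21 of 25 were higher in fatigued muscle and 3 passed: Anxa3 (0.67, adjusted p = 1.59e-05), Hic1 (0.92, adjusted p = 0.00297) and the fibronectin gene Fn1 (1.34, adjusted p = 0.0101) rose in edgeR.

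Microfibril and elastic fiber genes, the list that holds Mfap5, had 2 of 15 higher and 13 lower with PBMT in sedentary muscle, with Mfap5, Fbln2 (-0.22) and Fbln5 (-0.20) at the smallest unadjusted p. In fatigued muscle 16 of 17 were higher, among them Ltbp3 (0.11), Mfap4 (0.53) and Ltbp2 (0.94), and without PBMT replicate 5 that count was 3 of 17. No gene of the list passed in edgeR with PBMT. In sedentary muscle 2 of 15, Mfap5 among them, reached an unadjusted p under 0.05 in edgeR, beside 7.63% of all genes. In fatigued muscle 0 did, beside 1.58%. In sedentary muscle limma voom called 1, the member Mfap5 itself, beside 0.353% of all genes, and DESeq2 0, beside 0.218%. Between the controls 17 of 17 were higher in fatigued muscle, against 48.4% of all genes, and 5 rose past the threshold, against 18.6%: the fibulin gene Fbln2 (0.54), elastin (Eln, 0.98), the latent TGF-beta binding proteins Ltbp1 (0.52) and Ltbp4 (0.44), and the cross-linking enzyme Lox (0.93), with adjusted p-values from 0.00131 to 0.0405 in edgeR.

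Of the small leucine-rich proteoglycans, which include Dcn and Lum, 6 of 12 were higher with PBMT in sedentary muscle, where Podn (-0.27), Dcn and Omd (0.22) had the smallest unadjusted p, and limma voom put 1 of 12 higher and 11 lower with a median of -0.23. In fatigued muscle 11 of 12 were higher, with Bgn (0.33), Kera (0.48) and Prelp (0.32) first, and 1 of 12 without PBMT replicate 5. Between the controls 9 of 12 were higher and Prelp rose (0.90, adjusted p = 0.0260 in edgeR), 1 call of 12 beside 18.6% of all genes. The PDGF ligands and receptors had 4 of 7 higher with PBMT in sedentary muscle, where Pdgfrl (-0.30), Pdgfrb (0.16) and Pdgfra were first, and 6 of 7 in fatigued muscle, where the ligands Pdgfb (0.23), Pdgfc (0.39) and Pdgfd (0.10) were first, against 2 of 7 without PBMT replicate 5. Pdgfb (0.54, adjusted p = 0.0213) and Pdgfd (0.50, adjusted p = 0.0315) rose between the controls in edgeR, 2 of 7 beside 18.6% of all genes. In neither list did a gene pass in a PBMT comparison or reach an unadjusted p under 0.05 in edgeR, and DESeq2 and limma voom called 0 as well.

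Fibrogenic genes, which mark the collagen-making state of these cells, had 6 of 12 higher with PBMT in sedentary muscle, with Timp1 (0.99), Spp1 (1.52) and Acta2 (-0.18) first. In fatigued muscle 11 of 12 were higher, with Acta2 (-0.16), Tgfb1 (0.16) and Fn1 (0.35) first, and 2 of 12 without PBMT replicate 5. Fn1, Lox and Acta2 (0.44, adjusted p = 0.0197) rose between the controls in edgeR, 3 of 12 beside 18.6% of all genes, and 12 of 12 were higher there beside 48.4%. Adipocyte genes, the other fate of the progenitors, had 3 of 9 higher in sedentary muscle, where Lpl (-0.17), Cebpa (-0.23) and Pparg (-0.17) were first, and 7 of 9 in fatigued muscle, where Lpl (0.21), Retn (0.36) and Cidec (0.37) were first, against 2 of 9 without PBMT replicate 5. Pparg, the main transcription factor of fat cells, rose between the controls (0.43, adjusted p = 0.0440 in edgeR), 1 of 9 beside 18.6% of all genes. In both lists 0 genes passed with PBMT in edgeR, DESeq2 or limma voom, and 0 had an unadjusted p under 0.05 in edgeR.

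Other fits called other numbers of list genes between the controls, and of all genes too. DESeq2 called 10.7% of 29935 genes, and 5 of the 25 further progenitor genes, 7 of 17 microfibril genes, 2 of 15 proteoglycans, 3 of 7 PDGF genes, 4 of 12 fibrogenic and 1 of 9 adipocyte genes. limma voom called 32.7% of 15108 genes, and in the same lists 9 higher and 1 lower of 25, 9 of 17, 4 of 12, 4 of 7, 7 of 12 and 1 of 9. Without fatigued PBMT replicate 5 edgeR called 20.2% of 15208 genes, and 6 higher and 1 lower of 25, 8 of 17, 5 of 12, 3 of 7, 6 of 12 and 1 of 9.

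Markers of other cells in the tissue were read beside the members. Muscle fiber markers summed to 114600 ± 15700 CPM in sedentary controls and 120100 ± 9443 CPM with PBMT, and to 153000 ± 12880 CPM in fatigued controls and 150500 ± 13310 CPM with PBMT (SD, n = 6), with the fast myosin Myh4 the most abundant. Of 8 fiber markers, 5 were higher with PBMT in sedentary and 1 in fatigued muscle (5 without PBMT replicate 5), and between the controls 7 were higher and 4 rose (Tnnt3, Myh4, Acta1 and Ckm), beside the 18.6% of all genes that passed. Leukocyte markers went with the members in sedentary muscle, where 6 of 6 tested were lower (median log2 fold change -0.57), with 34.2 to 91.5 CPM in controls and 23.9 to 49.2 CPM with PBMT, mostly of Lyz2. In fatigued muscle 5 of 6 leukocyte markers were higher (0.14), and 0 of 6 without PBMT replicate 5, and between the controls 5 of 6 were higher (0 called in edgeR, 1 at an unadjusted p under 0.05). Tenocyte markers, led by Fmod, were higher in 4 of 7 in sedentary muscle (0.01) and in 7 of 7 in fatigued muscle (0.27), where the count was 2 of 7 without replicate 5; between the controls 6 of 7 were higher and Thbs4 rose, and their sum was 162 ± 40.8 CPM in sedentary and 327 ± 123 CPM in fatigued controls (SD, n = 6).

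Endothelial markers, led by Cdh5, had 5 of 10 higher and 5 lower in sedentary muscle (0.02) and 6 of 10 higher in fatigued muscle (0.01; 3 of 10 without PBMT replicate 5), and their sums were 372 ± 32.9 CPM in sedentary controls and 375 ± 72.6 CPM with PBMT (SD, n = 6). Pericyte and smooth muscle markers, led by Rgs5, had 5 of 9 higher in sedentary (0.03) and 2 of 9 in fatigued muscle (-0.08; 0 of 9 without PBMT replicate 5). Satellite cell markers, led by Cdh15, had 3 of 5 and 2 of 5 higher, and the 5 adipocyte markers, led by Adipoq, 3 and 3, in sedentary and fatigued muscle, where the last count was 1 without PBMT replicate 5. Between the controls, where 18.6% of all genes passed and 48.4% were higher, 8 of 10 endothelial markers were higher in fatigued muscle and 2 passed, Vwf and Cldn5, with a sum of 421 ± 64.9 CPM in fatigued controls (SD, n = 6). Of the pericyte and smooth muscle markers 8 of 9 were higher there and 2 passed, Myh11 and Acta2, of the satellite cell markers 4 of 5 were higher and Vcam1 passed, and the adipocyte markers were higher in 5 of 5. Of the 5 skin keratinocyte genes only Krt10 was tested. Krt15 was at 0 in every fatigued mouse, control or PBMT, and Krt1 in every fatigued PBMT mouse. The list's sum was at most 25.6 CPM, in sedentary PBMT replicate 4. No marker of these lists passed with PBMT in edgeR or DESeq2, and limma voom called none. In sedentary muscle, an unadjusted p under 0.05 in edgeR was reached by 3 of 10 endothelial and 2 of 6 leukocyte markers. This count was 1 of 9 for pericyte and smooth muscle markers and 1 of 5 for satellite cell markers. It was 0 for the other lists, beside 7.63% of all genes. In fatigued muscle the count was 0 for each list, beside 1.58% of all genes. Between the controls limma voom called 32.7% of all genes. Among cell type markers it called 1 of 6 leukocyte markers, with 3 of 6 higher, and 2 of 7 tenocyte markers. It also called 6 of 9 pericyte and smooth muscle, 2 of 5 satellite cell, and 2 higher and 1 lower of 10 endothelial markers. Without fatigued PBMT replicate 5 edgeR called 20.2% of all genes there, with 1 of 6 leukocyte and 3 of 7 tenocyte markers. The part of other cell types in the members' levels was not tested.

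The upstream bases of Gsn are shown because Gsn had the highest level per kilobase and the smallest unadjusted p of the members with PBMT in sedentary muscle. Of the 10 members, 5 had an entry among the RefSeq promoters (build GRCm38.p6), Pdgfra, Pi16, Dpp4, Cd34 and Gsn, with 7 starts in all, 3 of them of Gsn. Each window of 250 bases before the start was searched on both strands for 4 motifs, as were all 32851 RefSeq promoter windows of that length. The TATA box was searched as TATAAA and was found in 12.4% of all windows, and the CCAAT motif by its own letters in 33.8%. The GC box, searched as GGGCGG, was found in 32.7% of all windows, and the AP-1 motif, whose letters are TGANTCA, in 6.75%. The windows of Gsn, at chr2:35256109-35256358, chr2:35266494-35266743 and chr2:35282130-35282379 on the plus strand, held 2, 1 and 1 GC boxes and 0, 1 and 3 CCAAT motifs, and no TATA box or AP-1 motif; no matches overlapped. The first lies before the gene and the others in introns of longer Gsn transcripts, outside annotated exons. Counts per gene do not tell which start a read came from. Capitals mark the matches on either strand, and each sequence reads 5′ to 3′.
Gsn start 35256359: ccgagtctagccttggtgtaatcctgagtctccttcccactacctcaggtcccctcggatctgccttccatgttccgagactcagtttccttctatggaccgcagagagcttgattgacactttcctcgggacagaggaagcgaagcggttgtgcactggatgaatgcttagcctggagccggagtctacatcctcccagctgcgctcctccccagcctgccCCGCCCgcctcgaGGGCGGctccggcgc
Gsn start 35266744: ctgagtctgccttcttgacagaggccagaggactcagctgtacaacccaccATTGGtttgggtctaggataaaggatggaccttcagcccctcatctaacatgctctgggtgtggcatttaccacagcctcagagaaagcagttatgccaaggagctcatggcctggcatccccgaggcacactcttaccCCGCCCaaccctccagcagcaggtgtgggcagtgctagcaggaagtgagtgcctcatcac
Gsn start 35282380: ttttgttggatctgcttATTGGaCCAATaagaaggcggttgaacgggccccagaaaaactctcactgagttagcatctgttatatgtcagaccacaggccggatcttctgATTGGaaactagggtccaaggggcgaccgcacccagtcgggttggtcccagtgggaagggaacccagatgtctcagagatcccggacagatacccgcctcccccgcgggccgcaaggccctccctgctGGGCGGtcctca

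Elsewhere, Pi16 had 1 CCAAT motif in a window that lies wholly in annotated Pi16 exons, 1202 bases past the GENCODE start of the gene. Dpp4 had 1 TATA box in a window that overlaps Gm13561, and the windows of Pdgfra and Cd34 held none of the 4 motifs. A match describes the letters and was not tested as a binding site.

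The 10 markers are not unique to progenitors, and TA muscle was read in bulk. The sedentary and the exercise comparisons share the sedentary controls, and the fatigued and the exercise comparisons share the fatigued controls. Fatigued mice ran to exhaustion rather than for a fixed time, and the files give no run duration per mouse, so that PBMT and run duration cannot be told apart in fatigued muscle. Depth differed with PBMT in sedentary muscle. Between the controls it did not overlap, at 43271093 to 46904076 counts in sedentary and 56792327 to 68726155 in fatigued controls. The part of depth in the members' levels was not tested in either comparison. With 6 mice a group, a difference that did not pass is not a finding of no difference. Heat cannot be told apart from light among these groups.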

How the data were processed

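The authors deposited counts per gene, whole numbers without normalization, in 1 column for each of 24 mice. Libraries were poly(A)-selected, directional and paired-end. The submitters' processing notes name Trimmomatic, STAR 2.7.1a, Picard 2.20.4, StringTie 2.0.4, featureCounts 1.6.0, HTSeq and GRCm38; the annotation release and strand setting are not given in the sources used here. Of 55487 identifiers, 55227 matched GENCODE M21 (GRCm38). The members and lists were chosen with earlier results of these data known.

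Groups came from the labels. Each PBMT comparison was fitted on its 12 mice, the others on all 24, in R 4.3.3 with edgeR 4.0.16: filterByExpr (minimum count 10), TMM, robust quasi-likelihood tests, two-sided, and Benjamini-Hochberg adjustment over all genes tested at 0.05. Log2 CPM used a prior count of 2. The code was tested on simulated data. Named are the 10 members and, of each further list, the genes past the threshold in a comparison and otherwise the 3 with the smallest unadjusted p in each PBMT comparison, with the 5 genes most like the members. Of the cell type markers, the most abundant, those at 0 and those past the threshold are named. Alternatives were DESeq2 1.42.0, limma 3.58.1 voom with quality weights, edgeR with the size factors of DESeq2, without its filter or with a floor of 10 counts in all samples, with the 24 mice modelled together, with replicate numbers as blocks, and with each mouse left out. None of the 276 pairs of libraries matched within sampling noise.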

Additional observations from a re-analysis of the deposited data

Results flagged for a closer look

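Of 40 sets of 6 values, each of 1 member in 1 group, 5 had a mouse that stood apart from the rest of its group by its gap to the nearest neighbor, taken as a share of the whole range in log2 CPM. Chance flags about 1 in 20 groups, and members measured in the same mouse are not independent: the 5 fell on 3 mice. Dcn was low in sedentary control replicate 4, at 182 CPM against 263 to 314 CPM in the other controls, and Dpp4 was low in the same mouse, at 0.483 CPM against 1.82 to 2.86 CPM. Dcn was high in fatigued PBMT replicate 5, at 520 CPM against 270 to 327 CPM in the other mice of that group. Cd34 and Ly6a were high in sedentary PBMT replicate 2, Cd34 at 71.2 CPM against 39.2 to 47.0 CPM and Ly6a at 33.0 CPM against 25.5 to 27.2 CPM. What set these mice apart was not tested.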

How the results depend on the processing

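Under the settings other than leaving out mice, 10 of 10 members stayed lower with PBMT in sedentary muscle. In fatigued muscle 10 of 10 stayed higher with DESeq2, with its size factors in edgeR, without a filter, with the floor of 10 counts and with all 24 mice in a single model. With limma voom and quality weights, 8 of 10 log2 fold changes in fatigued muscle were negative: Dcn -0.025, Lum -0.008, Pi16 -0.070, Dpp4 -0.251, Cd34 -0.026, Gsn -0.080, Mfap5 -0.111 and Cd248 -0.198. limma voom also called 50 genes and 2 members in sedentary muscle, where edgeR called 4 and 0, and 4945 genes and 5 members between the controls, where edgeR called 2809 and 1. DESeq2 called 60 genes in sedentary muscle and 2 in fatigued muscle, where edgeR called 0. Between the controls it called 2 members, beside 3202 of 29935 genes (10.7%). Without a filter on low counts edgeR called 16 genes in sedentary muscle, and with all 24 mice in a single model 1.

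With the replicate number as a replicate block, 11 genes passed in sedentary and 1 in fatigued muscle, and Dpp4 (-0.020) and Cd248 (-0.036) turned negative in fatigued muscle, where Ly6a (0.259) had an unadjusted p of 0.0438 and an adjusted p of 1.00 in edgeR. The correlation of deviations between mice of equal number was -0.072 to 0.066 in sedentary muscle, where replicate 5 alone matched its own number best. No pairing was seen there, which does not show that there was none. In fatigued muscle the correlation was -0.085 to 0.325, and 3 of 6 numbers matched their own number best. Shared sessions cannot be told from chance there. No paired analysis was possible between the controls because they are different animals of separate projects.

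With each mouse left out in turn, 2 to 20 genes passed with PBMT in sedentary muscle. For the difference of PBMT effects 1 to 3 genes passed, and between the controls 1 to 2 members did. Of all genes, 18.6% passed between the controls with no mouse left out, and 20.2% without fatigued PBMT replicate 5. In sedentary muscle the log2 fold change of Lum ran from -0.287 to 0.092 and that of Cd248 from -0.253 to 0.069. Among the members that stayed lower there, it ran from -0.821 to -0.323 for Pi16 and -0.488 to -0.132 for Dpp4. It ran from -0.389 to -0.15 for Cd34, -0.28 to -0.125 for Pdgfra and -0.269 to -0.112 for Dcn. In fatigued muscle it ran from -0.113 to 0.258 for Pdgfra, -0.073 to 0.167 for Dcn, -0.079 to 0.266 for Lum, -0.161 to 0.626 for Pi16 and -0.326 to 0.336 for Dpp4. There it also ran from -0.091 to 0.118 for Cd34, -0.116 to 0.100 for Gsn, -0.130 to 0.222 for Mfap5 and -0.368 to 0.292 for Cd248. The difference of PBMT effects ran from -0.017 to 0.441 for Lum, -0.038 to 0.616 for Dpp4 and -0.321 to 0.395 for Cd248. Between the controls Lum ran from -0.259 to 0.055 and Cd34 from -0.168 to 0.022, and of the members that kept their direction Dpp4 from 0.020 to 0.427 and Dcn from 0.085 to 0.269. The cause was not tested.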
